A study of Mus musculus with 10 samples.

Results

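The 9 imprinted loci of the mouse described here, Airn, Kcnq1ot1, H19, Meg3, Peg3, Snrpn, Mest, Peg10 and Gnas, were followed through 2 histone marks in differentiating embryonic stem (ES) cells. They were chosen by name and position: each locus is a window of fixed mm9 coordinates, with no threshold on a measured value. The 9 windows span 249 kb and hold 129 of the 1236167 autosomal bins of 2 kb. The marks are trimethylation of histone H3 at lysine 4 (H3K4me3), found at active promoters, and at lysine 27 (H3K27me3), placed by Polycomb on silent chromatin. Both were measured by chromatin immunoprecipitation and sequencing in a study of X inactivation.

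The data are 10 libraries, each the only sample of its group. The line XT67E1 (strain label C3H/Pgk*129) was profiled for both marks undifferentiated, after 4 days with all-trans retinoic acid (atRA), and as embryoid bodies (EBs) 10 days after LIF was removed. The lines LF2 and E14 (strain label 129/Ola for each) were profiled for H3K27me3 only, undifferentiated and as 10-day EBs. E14 is known as a male line, and the other lines are female. All the ES cells had been grown on gelatin in serum with LIF. Strain and line cannot be told apart between XT67E1 and the other lines. LF2 and E14 share a strain label, but sex and line cannot be told apart between them. Each line counts as 1 sample per state. Embryoid bodies are mixtures of cell types, and in such a bulk sample a mark on fewer cells and less of the mark per cell cannot be told apart.

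Imprinted genes are expressed from the allele of one parent only, which is set by DNA methylation of a control region in the egg or the sperm. At such a region the unmethylated allele often carries H3K4me3, and Polycomb can mark a silent allele without DNA methylation. Several imprinted clusters are silenced by a long noncoding RNA: Airn, made from the paternal allele, silences Igf2r and its neighbours in cis, and Kcnq1ot1, also paternal, silences the Kcnq1 and Cdkn1c domain. Airn is known to be low in ES cells and to be induced as they differentiate. H19 and Meg3 are noncoding RNAs of the maternal allele, while Peg3, Snrpn, Mest and Peg10 encode proteins from the paternal allele. Gnas is a complex locus with promoters used on the maternal, the paternal or both alleles. The files carry no allele information, so every value below is the sum over both alleles.

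The promoters of these loci differ in how many CpG dinucleotides, the sites of DNA methylation, they hold. RefSeq promoters (GRCm38.p6; 250 bases before to 50 after each start) were matched by symbol for 7 of 9 loci, with 16 promoters in all; H19 and Peg10 were not matched. The 5 shown here were picked because they carry the contrasts described below: Airn and Kcnq1ot1 as noncoding RNA promoters, Snrpn and Mest as promoters of paternally expressed genes, and the Gnas promoter with the most CpG. Capitals mark each CpG.
Airn (chr17:12741061-12741360, plus strand): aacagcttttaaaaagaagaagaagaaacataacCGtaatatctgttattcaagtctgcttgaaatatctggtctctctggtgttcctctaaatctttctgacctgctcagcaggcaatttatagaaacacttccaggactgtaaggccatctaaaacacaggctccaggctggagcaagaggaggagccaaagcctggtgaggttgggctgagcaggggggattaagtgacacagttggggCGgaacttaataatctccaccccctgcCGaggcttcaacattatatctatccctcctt
Kcnq1ot1 (chr7:143296498-143296797, minus strand): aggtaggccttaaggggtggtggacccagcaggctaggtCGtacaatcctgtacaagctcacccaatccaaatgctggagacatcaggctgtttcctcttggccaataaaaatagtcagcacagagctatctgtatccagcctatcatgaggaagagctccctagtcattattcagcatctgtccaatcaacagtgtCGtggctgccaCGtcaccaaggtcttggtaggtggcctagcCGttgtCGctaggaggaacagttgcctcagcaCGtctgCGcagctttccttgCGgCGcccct
Snrpn (chr7:60005150-60005449, minus strand): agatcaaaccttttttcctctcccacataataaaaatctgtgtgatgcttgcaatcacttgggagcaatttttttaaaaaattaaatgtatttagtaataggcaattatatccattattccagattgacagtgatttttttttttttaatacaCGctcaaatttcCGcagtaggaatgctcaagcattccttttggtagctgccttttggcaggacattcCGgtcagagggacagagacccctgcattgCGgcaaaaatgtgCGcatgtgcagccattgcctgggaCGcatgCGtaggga
Mest (chr6:30737800-30738099, plus strand): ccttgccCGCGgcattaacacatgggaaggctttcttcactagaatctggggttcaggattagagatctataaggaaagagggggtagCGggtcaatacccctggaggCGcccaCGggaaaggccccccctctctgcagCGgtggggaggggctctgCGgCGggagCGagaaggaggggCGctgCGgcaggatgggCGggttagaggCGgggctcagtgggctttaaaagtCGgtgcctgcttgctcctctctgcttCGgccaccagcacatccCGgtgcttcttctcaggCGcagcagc
Gnas (chr2:174329756-174330055, plus strand): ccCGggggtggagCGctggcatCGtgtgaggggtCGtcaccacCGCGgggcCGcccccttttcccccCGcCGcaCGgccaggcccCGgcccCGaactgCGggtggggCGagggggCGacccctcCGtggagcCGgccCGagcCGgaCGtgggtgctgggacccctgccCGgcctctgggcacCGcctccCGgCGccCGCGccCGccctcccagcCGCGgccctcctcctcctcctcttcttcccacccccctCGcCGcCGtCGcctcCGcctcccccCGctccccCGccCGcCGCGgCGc
In these promoters Airn had 3 CpG, Snrpn 7, Kcnq1ot1 9, Mest 17 and Gnas 40, against a median of 7 (quartiles 3 and 20) over the 32851 promoters of the RefSeq table. Single promoters of Peg3 and Meg3 held 13 each. The hexamer TGCCGC, which the imprint-protecting protein ZFP57 recognises when methylated, was searched on both strands. It was found in 4 of the 16 promoters, at Snrpn, Mest and Meg3, and in 11.6% of all promoters of that length. The 4 include overlapping Mest promoters (chr6:30737800-30738099 and chr6:30737803-30738102) with the same hexamers. Overlapping promoters were not merged in either count, so the 16 are not separate sequences and the shares are not compared. These positions are on another build than the read files and were not set against the bins below.

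The depth was fixed within each set, with 2252395 reads per H3K4me3 library, 8380007 per XT67E1 library of H3K27me3, and 4531733 per library of LF2 and E14. Equal totals hide any overall gain or loss of a mark. Over the 9 windows this gave 747 to 854 reads per H3K4me3 library and 616 to 1271 per H3K27me3 library. Windows over Actb, Pou5f1 and the Hoxa cluster, placed at recalled mm9 positions and not checked against an annotation, served as references. The density of H3K4me3 at Pou5f1, a pluripotency gene, went from 34.8 times the autosomal mean in undifferentiated XT67E1 to 9.87 with atRA and 11.8 in EBs. The H3K27me3 density over Hoxa, a Polycomb target, was 6.33 to 8.67 in the XT67E1 libraries, 13.2 and 10.1 in LF2 undifferentiated and EBs, and 14.2 and 18.7 in E14. At Actb, an active housekeeping gene, the H3K4me3 density was 16.9, 10.7 and 9.93 in the 3 XT67E1 states. Its H3K27me3 in E14 went from 37 reads to 18 in EBs, a ratio of 0.486 (0.260 to 0.875). The strength of H3K27me3 enrichment at Hoxa differed between lines, and its part in the comparisons between lines was not tested.

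The clearest difference in H3K4me3 was at Airn. The bin with the most H3K4me3 reads in its window, chr17:12934001-12936000, held 6 reads in undifferentiated XT67E1, 70 after atRA and 37 in EBs. Both differentiated libraries were above the undifferentiated one, with atRA the highest. Unlike the window, that bin was picked by its reads summed over these libraries, most of them from the differentiated cells. The log2 ratio to undifferentiated cells, with 1 read added to each count, was 3.34 for atRA (counting 95% interval 2.35 to 5.04) and 2.44 for EBs (1.37 to 4.16). Over the whole 12 kb window the density went from 1.24 times the autosomal mean to 7.65 with atRA and 4.78 in EBs, a ratio of 6.16 (3.41 to 12.1) and of 3.85 (2.06 to 7.72). EBs held 0.624 times the atRA density (0.429 to 0.900). All such intervals cover counting error only, and with 1 library per group no comparison of libraries has a replicate test.

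In XT67E1 the H3K27me3 at Airn was similar in the 3 states, while in the other lines it was lower in EBs. The same bin was also the one with the most H3K27me3 in the Airn window, with 34 reads undifferentiated, 37 after atRA and 27 in EBs. In steps of 500 bp, the 250 bp position right of the bin centre held 28 H3K4me3 reads with atRA beside 8 H3K27me3 reads. In LF2 the bin went from 34 H3K27me3 reads to 9 in EBs, and in E14 from 21 to 7. Over the Airn window the H3K27me3 ratio of EBs to undifferentiated cells was 1.28 for XT67E1 (0.917 to 1.78), 0.384 for LF2 (0.232 to 0.616) and 0.388 for E14 (0.223 to 0.653). The intervals of LF2 and E14 do not reach that of XT67E1. The Actb reference was also lower in E14 EBs, at 0.486, and at 1.46 in LF2 EBs (0.736 to 2.95). The difference between lines itself was not tested, since each has 1 library per state.

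**Figure D1:**
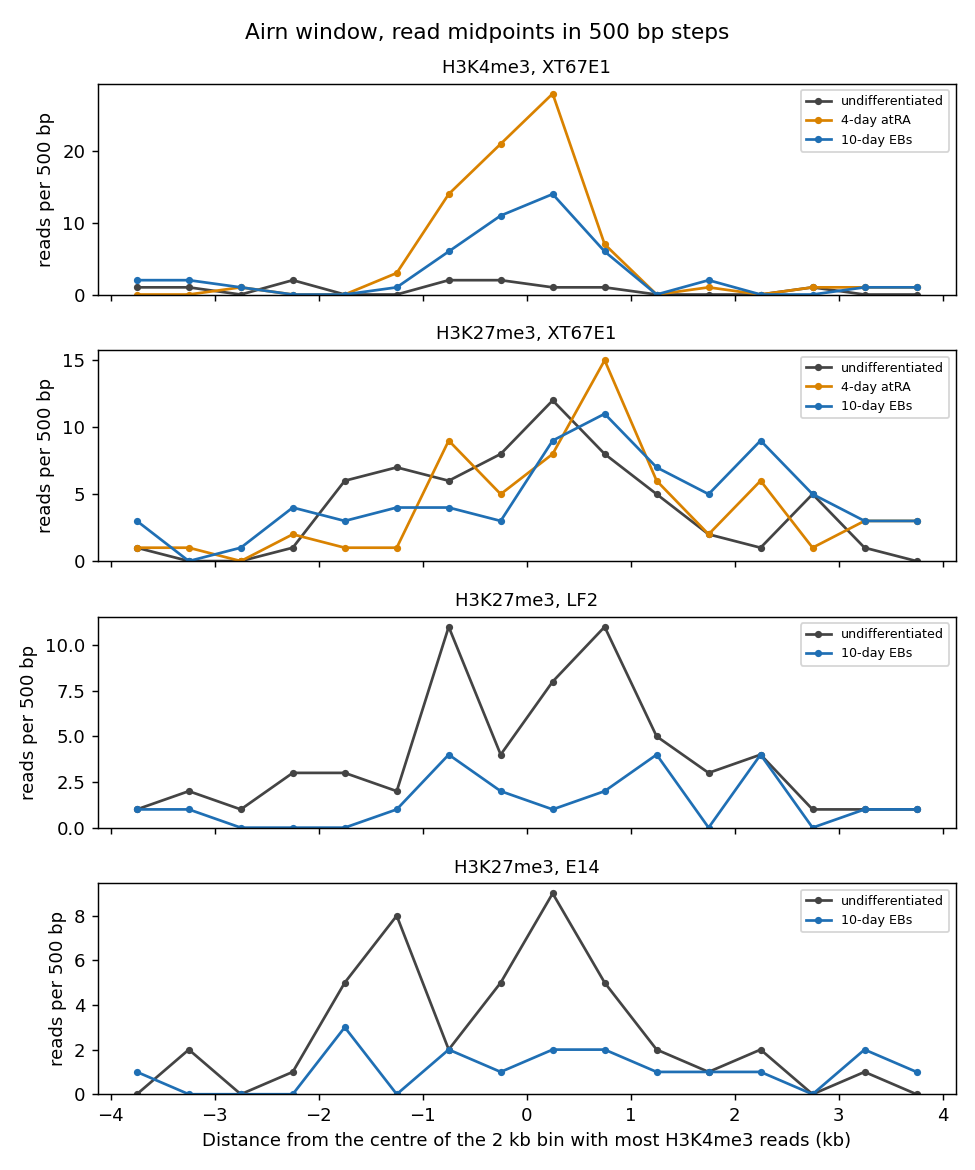
Reads per 500 bp (y axis) by distance in kb from the centre of the Airn bin with most H3K4me3 (x axis), for H3K4me3 in XT67E1 and H3K27me3 in XT67E1, LF2 and E14; each line is 1 library and the y scales differ. H3K4me3 reaches 28 reads per 500 bp with atRA and 14 in EBs where undifferentiated cells have 1, while the H3K27me3 of EBs lies below that of undifferentiated cells over the bin in LF2 and E14.

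Kcnq1ot1, the other silencing RNA, was marked in every state. Its top bin, chr7:150480001-150482000, held 91 H3K4me3 reads undifferentiated, 95 after atRA and 63 in EBs, above 99.95% of autosomal bins in undifferentiated cells. H3K27me3 in that bin was 3, 1 and 4 reads in XT67E1, 0.15 to 0.62 times the autosomal mean. It was 3 and 3 reads in LF2, just under the mean, and 6 and 4 in E14, at 1.68 and 1.12 times the mean. Over its 16 kb window H3K4me3 was 1.07 times the undifferentiated level with atRA (0.846 to 1.36) and 0.727 times in EBs (0.557 to 0.946). Under median-of-ratios scaling the log2 ratio for EBs was -0.12, against -0.46 as scaled here. That shift takes the near end of the interval past 0. The Actb reference was lower still in EBs, at 0.588 (0.457 to 0.753). Over the 7 libraries H3K27me3 was highest 6 kb away, in chr7:150486001-150488000, with 17, 17 and 20 reads in XT67E1, 25 and 11 in LF2 and 7 and 6 in E14. The E14 counts there were close to those in the Kcnq1ot1 bin with most H3K4me3.

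H19 showed the reverse balance in undifferentiated XT67E1, with much H3K27me3 and little H3K4me3. Its window held 8 H3K4me3 reads undifferentiated, 25 after atRA and 17 in EBs, and the ratio to undifferentiated cells was 3.13 with atRA (1.37 to 8.03) and 2.13 in EBs (0.869 to 5.69). In its top H3K4me3 bin, chr7:149762001-149764000, 1, 16 and 10 reads were counted. That bin was picked by its reads summed over these libraries, most of them from the differentiated cells. Its counts therefore add no support to the window ratios. H3K27me3 reads over the 13 kb window were 162, 132 and 127 in XT67E1, 141 and 50 in LF2, and 38 and 28 in E14. The E14 densities were 1.64 and 1.20 times the autosomal mean, near those of the Kcnq1ot1 window in E14 (1.61 and 1.15). LF2 EBs held 0.359 times the undifferentiated density (0.255 to 0.499), against 0.791 in XT67E1 (0.622 to 1.00) and 0.735 in E14 (0.435 to 1.23). Before differentiation H19 also separated the lines: XT67E1 had 2.34 times the density of E14 (1.64 to 3.43) and LF2 3.75 times (2.61 to 5.52). The Hoxa densities were 8.13 in XT67E1, 13.2 in LF2 and 14.2 in E14, and their part in this difference was not tested.

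Meg3, the maternal noncoding RNA of the Dlk1 domain, carried both marks in 1 bin and moved little. The bin chr12:110778001-110780000 held 28, 20 and 28 H3K4me3 reads, and 23, 15 and 21 H3K27me3 reads in XT67E1, 18 and 11 in LF2 and 7 and 13 in E14. In 500 bp steps the H3K27me3 was densest on the left of the bin and the H3K4me3 on the right: at 750 bp left of the centre, undifferentiated XT67E1 had 11 H3K27me3 reads and 1 H3K4me3 read, and at 750 bp right of it 3 and 15. Over the 37 kb window all 6 ratios to undifferentiated cells had intervals that include 1, from 0.768 (H3K4me3 with atRA, 0.553 to 1.06) to 1.21 (H3K27me3 in XT67E1 EBs, 0.933 to 1.57).

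**Figure D2:**
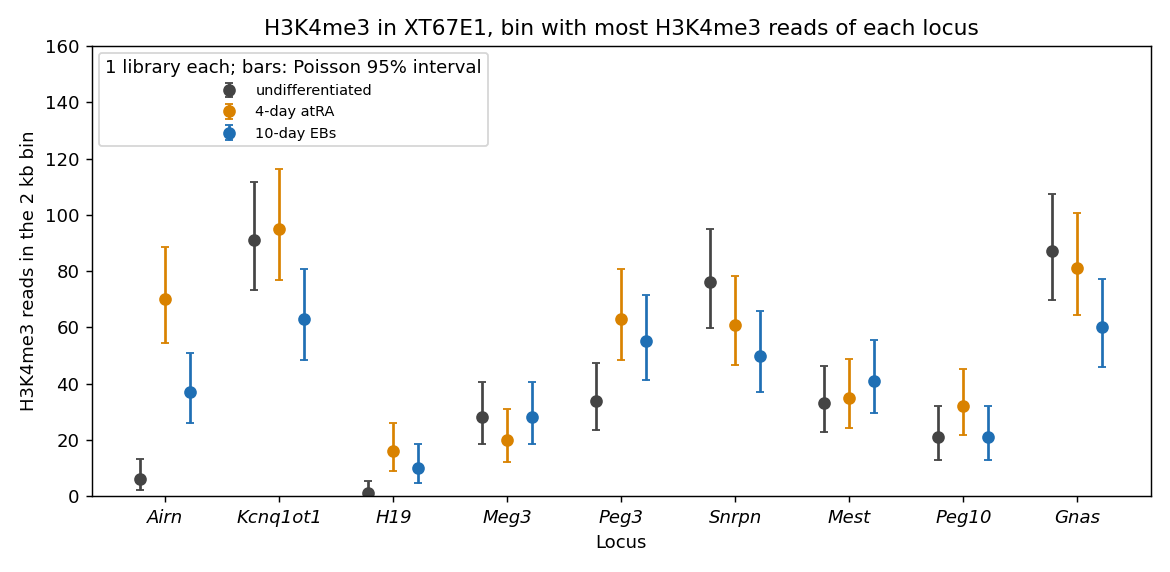
H3K4me3 reads (y axis, from 0) in the 2 kb bin with most H3K4me3 reads of each locus (x axis) in 3 XT67E1 libraries, with Poisson 95% intervals. Airn goes from 6 reads to 70 and 37, H19 from 1 to 16 and 10, and Kcnq1ot1 stays at 63 or more. Each bin was picked by its reads summed over these libraries.

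Of the paternally expressed protein genes, Peg3, which encodes a zinc-finger protein, had more H3K4me3 after differentiation and Snrpn, which encodes a splicing protein, had less. The Peg3 bin chr7:6682001-6684000 held 34, 63 and 55 H3K4me3 reads, and the Peg3 window ratio was 1.62 with atRA (1.22 to 2.18) and 1.53 in EBs (1.14 to 2.06). The Snrpn bin chr7:67148001-67150000 held 76, 61 and 50 reads, with window ratios of 0.711 (0.523 to 0.963) and 0.636 (0.462 to 0.869). None of these 4 differences reached 2-fold. Under median-of-ratios scaling the Snrpn log2 ratios were -0.43 and -0.31, against -0.49 and -0.65 as scaled here, and that shift takes the near end of both intervals past 0. The Actb reference had H3K4me3 ratios of 0.634 (0.496 to 0.807) and 0.588 (0.457 to 0.753), of the size seen at Snrpn. H3K27me3 in the Peg3 bin was 7, 12 and 10 reads in XT67E1, 1.08 to 1.85 times the autosomal mean, and 1 to 4 reads in LF2 and E14. In the Snrpn bin it was 1 to 6 reads over the 7 libraries, below the mean in each.

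Snrpn had the lowest H3K27me3 read density of the 9 windows in each of the 7 libraries, 0.22 to 0.58 times the autosomal mean. No input library is in the series, and how well reads map to each window was not tested. In XT67E1 its 31 kb window held 52 reads undifferentiated, 22 after atRA and 58 in EBs. The atRA library was the low one, at 0.423 times the undifferentiated density (0.245 to 0.709), while EBs were at 1.12 times (0.760 to 1.67). In LF2 the Snrpn window held 24 reads in both states and in E14 17 and 23.

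At Mest, which encodes a hydrolase-like protein, the marks lay in separate bins 4 kb apart. H3K4me3 was highest in chr6:30688001-30690000, with 33, 35 and 41 reads. H3K27me3 was highest in chr6:30684001-30686000, with 37, 43 and 43 reads in XT67E1, 41 and 15 in LF2 and 11 and 9 in E14. Undifferentiated LF2 stood out among the Mest windows, with 2.55 times the H3K27me3 density of E14 (1.74 to 3.82) and 1.78 times that of XT67E1 (1.33 to 2.38). In LF2 EBs the Mest window was at 0.591 times its undifferentiated density (0.417 to 0.830), and in XT67E1 and E14 at 1.05 and 1.13 times, with intervals that include 1. Chromosome 6 as a whole, which holds Mest and Peg10, was at 1.09 times the autosomal mean in undifferentiated LF2. It was at 1 in LF2 EBs, 0.962 in undifferentiated XT67E1 and 0.997 in undifferentiated E14, and its part was not tested.

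Peg10 is a gene derived from a retrotransposon that lies head to head with Sgce. Over its window H3K27me3 was lower in EBs in all 3 lines, though the E14 interval includes 1. Its top H3K4me3 bin, chr6:4696001-4698000, held 21, 32 and 21 H3K4me3 reads. H3K27me3 in that bin was 31 reads in undifferentiated XT67E1, 7 after atRA and 5 in EBs, 14 and 4 in LF2, and 8 and 4 in E14. The bin to its left, chr6:4694001-4696000, went from 27 to 7 and 12 reads in XT67E1 and from 17 to 4 in LF2. Over the 7 libraries H3K27me3 was highest at the left edge of the window, in chr6:4692001-4694000. That bin was not lower in XT67E1 EBs: it held 27, 15 and 27 reads in XT67E1, 22 and 11 in LF2 and 6 and 5 in E14. Over the 20 kb window the H3K27me3 ratio of EBs to undifferentiated cells was 0.633 for XT67E1 (0.461 to 0.863), 0.506 for LF2 (0.337 to 0.749) and 0.665 for E14 (0.412 to 1.06), and atRA gave 0.528 in XT67E1 (0.377 to 0.732). H3K4me3 was at 1.43 times with atRA (0.969 to 2.12) and 1.11 times in EBs (0.731 to 1.68).

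In the Gnas window, 70 kb long, 2 stretches are described. In the first, the bin chr2:174120001-174122000 held 87, 81 and 60 H3K4me3 reads but only 11, 5 and 7 H3K27me3 reads in XT67E1, 0 and 0 in LF2 and 3 and 4 in E14. The H3K27me3 peak lay 4 kb to the right, in chr2:174124001-174126000, with 51, 101 and 71 reads in XT67E1, 53 and 46 in LF2 and 60 and 43 in E14. The bin between them, chr2:174122001-174124000, also held H3K27me3, so it adjoined the bin with most H3K4me3. Undifferentiated and in EBs it held 43 and 48 H3K27me3 reads in XT67E1, 40 and 27 in LF2 and 27 and 34 in E14. In the second stretch, from chr2:174152001-174154000 to chr2:174156001-174158000, reads of both marks were counted in 3 adjoining bins. H3K4me3 there was 6, 6 and 14 reads in the left bin, 26, 19 and 16 in the middle one and 12, 31 and 14 in the right one. H3K27me3 in the left bin of the Gnas stretch was 67, 83 and 49 reads in XT67E1, 53 and 34 in LF2, and 65 and 20 in E14. In the middle bin it was 27, 45 and 21 in XT67E1, 39 and 19 in LF2 and 49 and 14 in E14. In the right bin of Gnas it was only 7, 4 and 11 in XT67E1, 21 and 5 in LF2 and 11 and 9 in E14. The E14 ratio of the left bin was -1.65 on the log2 scale (-2.50 to -0.96) and that of the middle bin -1.74 (-2.78 to -0.93). The whole Gnas window was at 1.18 times the undifferentiated H3K27me3 density with atRA (1.04 to 1.33), 1.07 times in XT67E1 EBs (0.942 to 1.21), 0.758 times in LF2 EBs (0.650 to 0.882) and 0.755 times in E14 EBs (0.647 to 0.880).

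**Figure D3:**
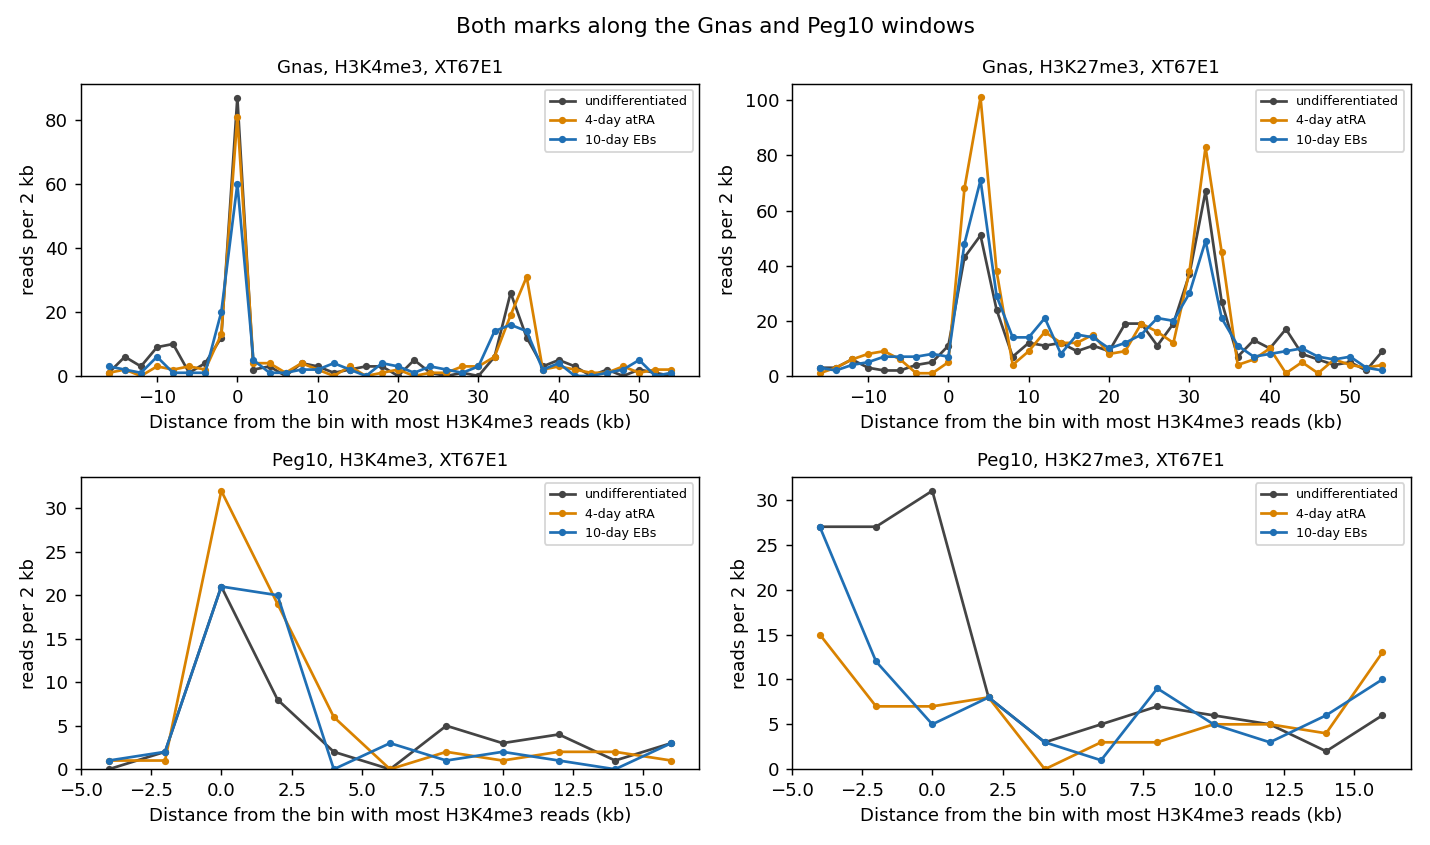
Reads per 2 kb bin (y axis) by distance in kb from the bin with most H3K4me3 (x axis) along the Gnas and Peg10 windows in XT67E1; each line is 1 library and the y scales differ. At Gnas the H3K4me3 peak (60 to 87 reads) and the first H3K27me3 peak (51 to 101 reads) are 4 kb apart, and at Peg10 the H3K27me3 of the peak bin goes from 31 reads to 7 and 5.

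Across the loci, the order of H3K27me3 density in undifferentiated cells was H19, Gnas, Mest, Airn and Peg10 in XT67E1, from 3.84 to 1.70 times the autosomal mean, with Kcnq1ot1, Meg3, Peg3 and Snrpn at 1.08 or below. Gnas, Mest, Airn and Peg10, at 2.20, 1.79, 1.75 and 1.70, had counting intervals that overlap. In LF2 H19 stood first at 6.14, while in E14 Gnas (3.15) and Airn (2.52) were ahead of H19 (1.64). The E14 intervals of Airn and H19 overlap. For H3K4me3 the order in undifferentiated XT67E1 ran from Kcnq1ot1 (9.96) over Snrpn (3.96), Gnas (3.60) and Mest (3.57) to Airn (1.24) and H19 (0.71). Snrpn, Gnas and Mest did not differ beyond their counting intervals, nor did Airn and H19. These are means over windows of 12 to 70 kb, and by the top bin alone Kcnq1ot1 (52.2), Gnas (49.9) and Snrpn (43.6) lay close together.

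**Figure D4:**
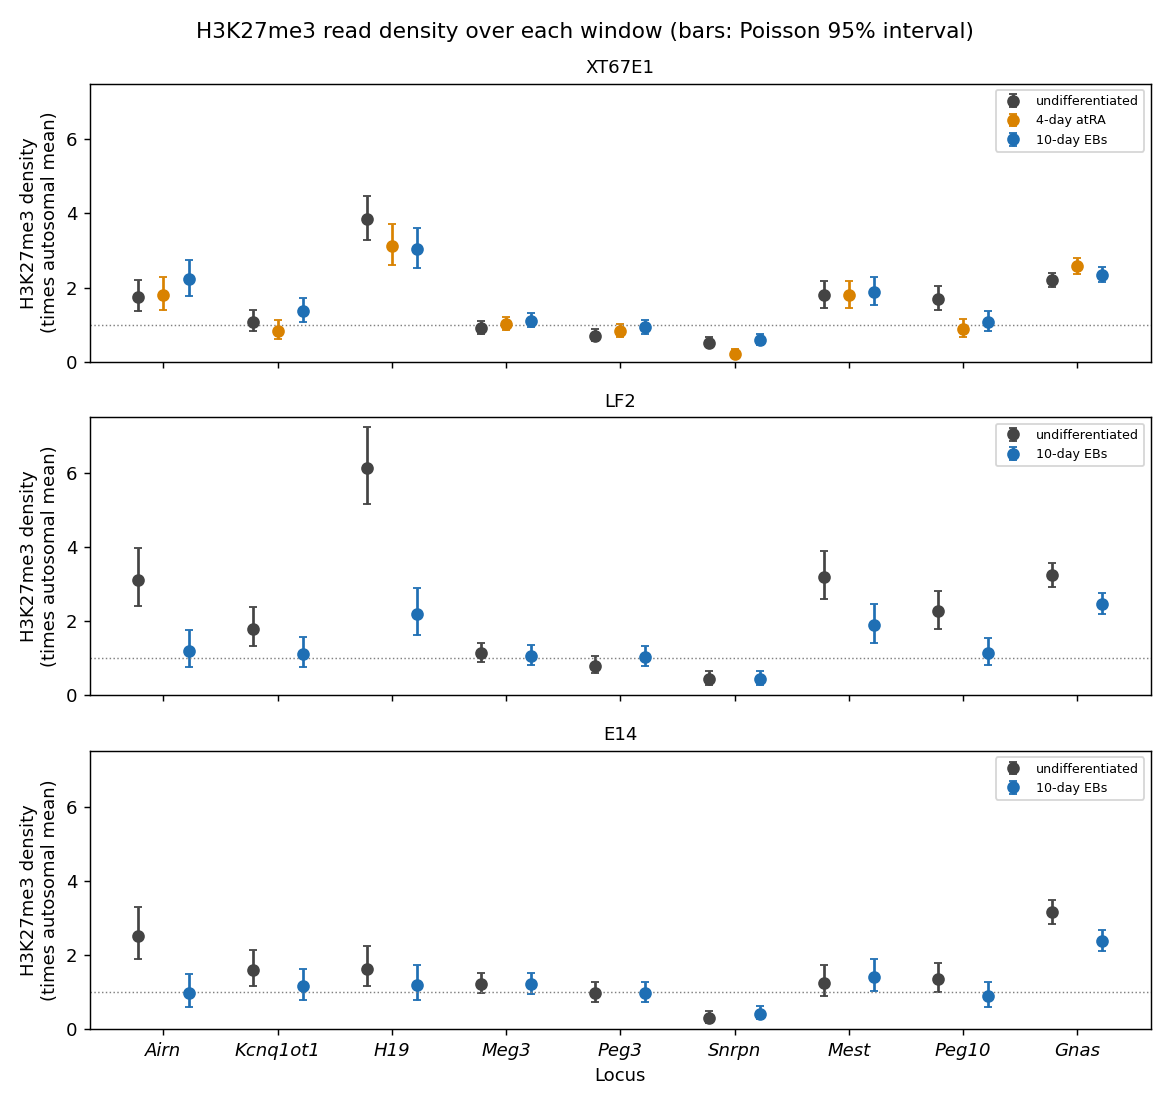
H3K27me3 read density over each window (y axis, times the library's autosomal mean, dotted line at 1) by locus (x axis) in XT67E1, LF2 and E14, 1 library per point, with Poisson 95% intervals. H19 ranges from 1.20 in E14 EBs to 6.14 in undifferentiated LF2, and Snrpn lies under 1 in every library.

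The members were then counted by 1 rule and set beside all autosomal bins. A bin was called when it differed at least 2-fold in RPM (reads scaled to autosomal reads), with a counting interval that excludes 1 and at least 20 reads in the 2 libraries. Only 12 to 38 of the 129 bins had enough reads, and a bin that passed through 1 library alone had to differ, so these counts describe the tested bins only. In H3K4me3 with atRA, 2 of 15 were higher (Airn, and Gnas chr2:174156001-174158000) and 0 lower, where 4.76% of autosomal bins were higher and 12.2% lower. In H3K4me3 of EBs, 2 of 16 were higher (Airn, and Peg10 chr6:4698001-4700000) and 0 lower, against 2.88% and 12.8%. The median log2 ratio of the tested members was 0.08 and 0.10 in these comparisons, and of all tested autosomal bins -0.06 and -0.33.

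In H3K27me3 of XT67E1 the shares were small in both directions. With atRA 1 of 37 bins was higher (Meg3 chr12:110806001-110808000) and 2 lower (both Peg10), against 3.66% and 2.13% of autosomal bins. Of 38 bins tested for XT67E1 EBs, 0 were higher and 2 lower, the same Peg10 bins, against 2.15% and 4.15%; with median-of-ratios scaling this was 1 higher and 1 lower, and with 10 kb bins 2 higher (Gnas and Meg3) and 0 lower. In LF2 EBs 0 of 27 were higher and 11 lower, against 1.98% and 12.5%; with 10 kb bins 3 of 27 were lower. The 11 were 4 at H19, 2 at Peg10, 2 at Gnas, and 1 each at Airn, Kcnq1ot1 and Mest. In E14 EBs 0 of 12 were higher and 3 lower (1 at Airn, 2 at Gnas), against 9.11% and 6.07%. The median log2 ratio of the tested members was 0.04, -0.09, -0.92 and -0.34 in these 4 comparisons, and of all tested autosomal bins 0.08, -0.10, -0.33 and 0.16.

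Whole windows were judged by the same rule, with autosomal bins of 20 kb as background. The windows are 12 to 70 kb long, and the rule depends on reads and so on length. The shares given here are therefore a rough scale and not a matched background. In H3K4me3, 2 windows were higher with atRA (Airn and H19) and 0 lower, against 2.3% and 2.01% of such bins. In EBs 1 was higher (Airn) and 0 lower, against 2.67% and 1.38%. In H3K27me3 with atRA 0 windows were higher and 1 lower (Snrpn), where 0.265% of such bins were higher and 0.93% lower. No window was called in EBs of XT67E1, against 0.893% higher and 0.124% lower. In LF2 EBs 0 were higher and 2 lower (Airn and H19), against 3.08% and 0.995%. In E14 EBs 0 were higher and 1 lower (Airn), against 0.806% and 1.82%. The chromosomes that hold the windows had EB or atRA densities of 0.916 to 1.06 times the undifferentiated ones.

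**Figure D5:**
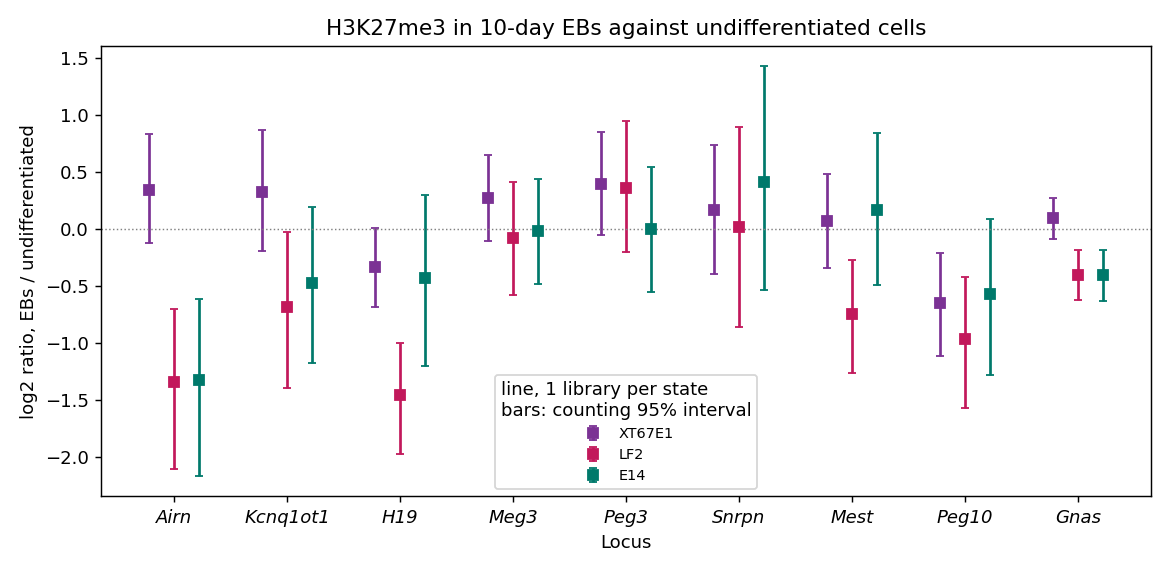
log2 ratio of H3K27me3 in 10-day EBs to undifferentiated cells (y axis) over each window (x axis) in 3 lines, 1 library per state, with counting 95% intervals. Peg10 lies below 0 in all 3 lines, while Airn lies at 0.35 for XT67E1, -1.35 for LF2 and -1.32 for E14.

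The 3 lines together allow 1 test, of EBs against undifferentiated cells in H3K27me3, with the line as a block. It was fitted with limma on log2 RPM of 10 kb bins, and p-values were adjusted by Benjamini-Hochberg over all 227429 bins. At an adjusted p under 0.05, 0.0932% of bins rose and 0.04% fell. Of 29 member bins tested 1 fell and 0 rose: the Peg10 bin chr6:4690001-4700000 fell by 1.09 on the log2 scale (SE 0.24, limma adjusted p = 0.0387, lower in 3 of 3 lines). Its reads went from 119 to 80 in XT67E1, from 92 to 29 in LF2 and from 44 to 20 in E14. This Peg10 call was lost without LF2 (change -0.83, limma adjusted p = 0.406), without the replicate block of lines (-1.09, 0.791), without a read minimum (-1.09, 0.0959), with background scaling (-1.17, 0.100) and with median-of-ratios scaling (-1.12, 0.0638). It passed without XT67E1 (-1.36, 0.0307), without E14 (-1.08, 0.0445), with voom (-1.11, 0.0115) and with a pseudocount of 5 reads (-1.0, 0.0171). The direction was the same in these settings. The fits without XT67E1, LF2 or E14 used a variance pooled over all bins. With 2 kb bins 0 of 30 member bins passed. The Peg10 bins were then at -0.38, -1.05 and -1.61 from left to right (limma adjusted p = 0.756, 0.303 and 0.167).

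The next member bins did not pass. The Airn bin chr17:12930001-12940000 had a change of -0.83 (limma adjusted p = 0.293), made up of 0.30 for XT67E1, -1.40 for LF2 and -1.39 for E14. Without XT67E1 this Airn bin was at -1.39 and passed (limma adjusted p = 0.0185), in a fit whose variance was pooled over all bins. Without LF2 or E14 it was at -0.54 and -0.55. The Gnas bin chr2:174150001-174160000 had -0.86 (limma adjusted p = 0.231), with -0.34, -0.88 and -1.36 in the same order of lines. The H19 bin chr7:149760001-149770000 had -0.77 (limma adjusted p = 0.286), with -0.44, -1.45 and -0.42; without LF2 it was at -0.43. The Gnas bin chr2:174110001-174120000 was higher in all 3 lines, at 0.65 (limma adjusted p = 0.483). With the Peg10 bin these make 5 of 29 member bins at an unadjusted p under 0.05, where 7.77% of all bins were, and the median change of the 29 was -0.06 against 0.03 over all bins tested.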

How the data were processed

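The authors deposited 10 lists of read positions in mm9 coordinates, the build per the submitters' processing notes: intervals of 200 bp with no value, score or strand, and no repeats. How reads were aligned, filtered and extended is not given in the sources used here. Per the labels' protocols, fixed chromatin was sonicated, precipitated and read on Illumina Genome Analyzers. The sample titles gave each group.

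Interval midpoints were counted in the windows and in 2 kb bins (a bin belongs to a window if they overlap by at least 1 kb), and scaled to autosomal reads (RPM). Log2 ratios used a pseudocount of 1 read. Intervals are exact conditional binomial for ratios and exact Poisson for levels, at 95%. The limma 3.58.1 fit (R 4.3.3) used 10 kb bins with at least 60 reads over 6 libraries, an intensity trend and the line as a block. The lines pair the libraries by origin, and their deviations from the state means correlated at 0.185, 0.0844 and 0.240 (XT67E1, LF2, E14). The limma p-values rest on the spread of the change between 3 lines, with a variance moderated over all bins. The total was 43.3 degrees of freedom, most of them from other bins. In the fits that left out a line it was 125265 to 200496, so their variance was the one pooled over bins. Calls in those fits do not measure how far the remaining lines agree at a bin. Rules were checked on simulated data.

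All 9 windows are described. Named bins are the one with most reads of each mark, except the H3K27me3 bin at H19, Peg3 and Snrpn, and bins called. Some called bins are only counted by locus. The members, lists and tests were chosen with earlier results of these data known. The 500 bp steps and the second Gnas stretch were chosen after the values were seen. Other imprinted genes are not analysed here, since no mm9 annotation was used. The alternatives tried were a pseudocount of 5 reads, no read minimum, and background, median-of-ratios and own-chromosome scaling. Bins of 10 kb for the 2-fold rule and windows extended by 2 kb on each side were also tried. For limma they were also 2 kb bins, no replicate block, voom and leaving out each line.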

Additional observations from a re-analysis of the deposited data

How the results depend on the processing

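The number of member bins called moved by over 1.5 times in these cases. Without a read minimum it was 4 for H3K4me3 with atRA, 6 for H3K4me3 in EBs, 5 for H3K27me3 with atRA and 7 in E14 EBs. For H3K4me3 in EBs it was also 1 with a pseudocount of 5 reads, with background scaling and with 10 kb bins, and 4 with median-of-ratios scaling. It was 1 in XT67E1 EBs for H3K27me3 with a pseudocount of 5 reads, and 3 in LF2 EBs with 10 kb bins. The limma count of 303 changed 10 kb bins was 10 with no replicate block, 576 with voom, 157 with no read minimum, 494 with a pseudocount of 5 reads, 175 with background scaling and 331 to 621 when each line was left out, 621 without E14. The cause was not tested.

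Of 270 window log2 ratios recomputed, 268 stayed within their counting intervals, and no ratio with an interval that excludes 0 changed sign. The other 2 were Gnas under median-of-ratios scaling, at 0.09 for H3K4me3 in EBs, where the sign changed, and -0.07 for H3K27me3 in LF2. That scaling moved every log2 ratio by 0.33 in both comparisons, by 0.10 in XT67E1 EBs and by -0.16 in E14 EBs; background scaling moved them by -0.13 (H3K4me3 in EBs), 0.15 (H3K27me3 with atRA), -0.13 (XT67E1 EBs), -0.20 (LF2) and 0.10 (E14). Ratios whose interval ends within such a shift of 0 are not set apart from it. Examples are Kcnq1ot1 and Mest for H3K27me3 in LF2, and Kcnq1ot1 for H3K4me3 in EBs. Most counting intervals extend further than these shifts, so few ratios could leave them by rescaling. The count of 268 is therefore no measure of how stable the ratios are. Some ratios near 0 changed sign within their intervals, such as Mest for H3K4me3 with atRA.

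With 1 library per group, differences between libraries cannot be told apart from differences between states. Low counts set wide intervals, such as 1 to 16 H3K4me3 reads at H19, 6 at undifferentiated Airn and many H3K27me3 bins of LF2 and E14.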
